A study of Mus musculus with 9 samples.

Results

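Opposite-strand genes carry the symbol of another gene followed by os, os1, os2 or os3, as Rab26os does with Rab26, and lie on the other DNA strand from that partner. Of the 24318 gene symbols in the deposited tables, 154 met this naming rule, and they belong to 147 partner genes, 7 of which have more than 1 opposite-strand gene. RNA was sequenced from N2A cells, a mouse neuroblastoma line labelled wild type for the scramble libraries and untreated throughout. The cells received scramble siRNA, siRNA against EXOSC3 or siRNA against DDX1 with a cationic lipid reagent, and 3 libraries were made per condition from separate plates. Scramble is thus the control that shares the transfection, and the study's methods list 2 EXOSC3 siRNAs without saying which one the sequenced cells received. Ribosomal RNA was depleted and the libraries were nondirectional, so a read from bases that an opposite-strand gene and its partner share cannot be assigned to either strand. The authors deposited FPKM, a count of fragments scaled by transcript length and by depth, in 1 table per knockdown, and each knockdown was compared with the scramble libraries of its own table.

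Many mammalian promoters start RNA synthesis in both directions, and the transcript that leads away from the gene is usually short-lived. The nuclear RNA exosome, a barrel of subunits with EXOSC3 in its RNA-binding cap and the nucleases DIS3 and EXOSC10 attached, degrades such upstream antisense RNAs together with many other noncoding transcripts. DDX1 is a DEAD box RNA helicase that also acts on RNA-DNA hybrids. Other opposite-strand genes begin inside or beyond their partner, and most of these are classed as long noncoding RNAs. A few opposite-strand genes encode small proteins.

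The targeted transcripts were examined first. Exosc3 fell to 15.5% of its scramble mean in siEXOSC3 (log2 fold change -2.53, adjusted p = 1.113e-05) and Ddx1 to 24.4% in siDDX1 (-2.01, adjusted p = 9.531e-05). These and all adjusted p-values below came from limma on log2(FPKM + 1), two-sided and Benjamini-Hochberg adjusted over all genes with a mean of at least 1 FPKM in the 6 libraries of a table, a scale that understates changes of low genes. Absolute depth is unknown from FPKM, and the depth relative to scramble replicate 1, read from the smallest values, lay between 0.827 and 1.20. Of 12 neuronal markers 10 were tested and the other 2 stayed under 1 FPKM in every library, and 7 rose in siEXOSC3 (16.7% of all tested genes rose), where the list summed to 782 to 802 FPKM against 465 to 496 in scramble. In siDDX1, 1 of the 10 rose (5.61% of all tested genes rose), with sums of 474 to 511 against 461 to 490 FPKM. Of 8 markers of glia, blood, stroma, endothelium, epithelium and muscle, 5 stayed under 1 FPKM in every library and 3 were listed at 0 in all 6 libraries of the siEXOSC3 table. The 8 summed to 14.2 to 18.3 FPKM in siEXOSC3 and 15.2 to 16.9 in scramble, but 2 of the 3 tested moved in opposite directions. Pecam1, of endothelium, rose from 3.80 to 4.49 FPKM in scramble to 6.11 to 9.08 in siEXOSC3 (0.68, adjusted p = 0.008273). Acta2, of smooth muscle, fell from 8.32 to 11.03 FPKM to 6.04 to 7.11 (-0.50, adjusted p = 0.0108), and neither passed in siDDX1. The part of these marker shifts in the results below was not tested, and in bulk RNA a change in the number of cells that make a transcript and in its amount per cell cannot be told apart.

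In RefSeq 139 of the 154 opposite-strand genes are long noncoding RNAs, 4 antisense RNAs, 2 transcribed pseudogenes and 9 protein coding (among them Ccpg1os, Cebpzos, Slc7a6os, Toporsos and Wdr83os). Positions on NCBIM37, the sequence of mm9, were found for 148, and every placed pair lies on opposite strands. In 45 pairs the starts lie within 1000 bases of each other, which is called divergent here and includes starts that overlap head to head. In 70 pairs the opposite-strand gene starts inside the partner at a greater distance, in 18 it overlaps the partner but starts outside it, in 9 it lies downstream and in 5 upstream and apart. Another 5 pairs overlap in RefSeq without a placed start, and 2 were not placed. Exons of both genes could be placed for 136 pairs, and in 68 of these the exons share bases.

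The divergent starts lay in sequence rich in GC. Promoter windows of 250 bases before to 50 after the start, from RefSeq on GRCm38.p6, were available for 123 opposite-strand genes, and each was found unchanged in NCBIM37. The 41 divergent windows had a median GC content of 66.0% and 25 CpG dinucleotides, against 51.8% and 5 for the 82 others and 52.7% and 7 for 27025 genes. The windows of 120 partners lay between, at 60.8% and 19.5, as did those of the 31 tested opposite-strand genes with a window, at 61.7% and 21. The letters TATAAA, searched on both strands, stood in 4.88% of the divergent windows, 12.2% of the other opposite-strand windows, 7.5% of the partner windows and 14.2% of all windows. The stretches between the RefSeq starts of 5 divergent pairs whose opposite-strand gene rose in siEXOSC3 are printed because they are all that lies between 2 transcripts read in opposite directions; in the sixth such pair, Ggnbp2os and Ggnbp2, the starts overlap head to head. Each is given on the strand of the opposite-strand gene, on NCBIM37, with CpG dinucleotides in capitals.
Cep83os and Cep83: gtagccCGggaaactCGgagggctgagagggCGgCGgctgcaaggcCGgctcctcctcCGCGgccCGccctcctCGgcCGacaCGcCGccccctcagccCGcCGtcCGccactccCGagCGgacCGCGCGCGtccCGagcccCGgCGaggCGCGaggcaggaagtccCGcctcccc
Fam120aos and Fam120a: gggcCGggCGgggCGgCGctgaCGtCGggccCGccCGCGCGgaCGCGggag
Ccpg1os and Ccpg1: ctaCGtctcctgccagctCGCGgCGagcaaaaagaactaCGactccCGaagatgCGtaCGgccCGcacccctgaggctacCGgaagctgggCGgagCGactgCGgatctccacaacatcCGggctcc
Med9os and Med9: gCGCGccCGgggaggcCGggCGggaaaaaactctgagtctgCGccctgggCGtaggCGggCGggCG
Mkln1os and Mkln1: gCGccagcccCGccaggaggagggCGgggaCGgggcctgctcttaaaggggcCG
They lie at chr10:94151359-94151534 (minus strand), chr13:49063430-49063480 (plus), chr9:72833184-72833310 (minus), chr11:59761650-59761715 (minus) and chr6:31348774-31348827 (minus). Their lengths are 176, 51, 127, 66 and 54 bases, with 27, 12, 14, 10 and 5 CpG. On either strand, none of the 5 holds the TATA-box letters TATAAA, the letters CCAAT of another promoter element, the polyadenylation signal AATAAA or the splice-donor letters GTAAGT. GENCODE vM1 places some of these starts elsewhere: its Fam120a and Fam120aos starts are 270 bases apart, and its Mkln1 and Mkln1os starts overlap by 39 exonic bases.

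A filter on low values left few opposite-strand genes to test. A mean of 1 FPKM was reached by 38 of 154 in the siEXOSC3 table and by 34 in the siDDX1 table, and all 34 were among the 38. FPKM is per transcript length, so levels of the 2 genes of a pair can be set side by side. In scramble, 27 of the 38 opposite-strand genes lay below their partner in every library, 8 above and 3 overlapped it, and the median level was 22.8% of the partner's. Among those far below was Rbm3os, at 1.26 ± 0.382 FPKM (SD, n = 3) beside 386 ± 16.1 FPKM for Rbm3, which encodes a cold-inducible RNA-binding protein. The 8 above were Rab26os, Epb4.1l4aos, Wdr83os, Peg3os, Brip1os, Ttc39aos1, Kank4os and Dnm3os.

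Rab26os and Epb4.1l4aos stood far above the rest. Rab26os was at 203 ± 18.2 FPKM in scramble and Epb4.1l4aos at 127 ± 18.1, while their partners Rab26, a vesicle GTPase, and Epb4.1l4a were at 1.00 ± 0.400 and 0.346 ± 0.0610 FPKM (SD, n = 3 each). These 2 genes held 53.7 to 54.6% of the FPKM summed over all opposite-strand genes in the scramble libraries. They are also the only 2 of the 154 whose RefSeq span contains a snoRNA gene. Dnm3os, whose span contains the miRNA genes Mir199a-2 and Mir214, was at 0.941 ± 0.242 FPKM (SD, n = 3) in scramble. Wdr83os, protein coding and divergent from Wdr83, was at 63.2 ± 2.97 FPKM, 6.05 times its partner.

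**Figure D1:**
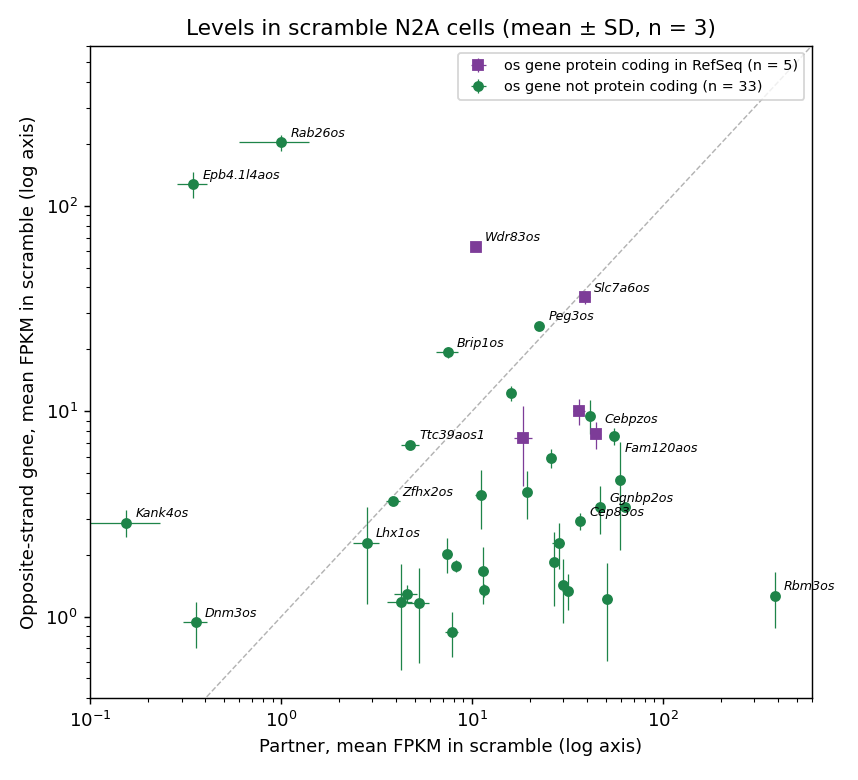
Mean FPKM in the 3 scramble libraries of the siEXOSC3 table for the 38 tested opposite-strand genes (vertical) against their partners (horizontal), both on log axes, with SD as bars and the dashed line at equal levels. Most points lie below the line, with a median of 22.8% of the partner, and Rab26os and Epb4.1l4aos lie far above it.

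Upon EXOSC3 knockdown 11 of the 38 tested opposite-strand genes rose and 4 fell, beside 16.7% of all 11242 tested genes that rose and 15.7% that fell (32.4% in either direction). As shares, 28.9% of the tested opposite-strand genes rose and 10.5% fell. Their median log2 fold change was 0.10, against -0.01 over all tested genes. Of 327 other tested lncRNA genes 30.3% rose and 7.95% fell, with a median of 0.20, so the opposite-strand genes were not set apart from other long noncoding RNAs by these counts. Since libraries with a high level help a gene pass the filter, the count was repeated with a filter on scramble alone: 11 rose and 4 fell of 36, beside 16.0% and 15.9% of all genes. The median log2 fold change of these opposite-strand genes was lower, at 0.047, against -0.023 over all genes and 0.131 over the other lncRNA genes. With no filter at all, 11 rose and 2 fell of 104, beside 10.8% and 7.63% of 17015 genes of all kinds, so that the share of opposite-strand genes that rose (10.6%) was then near that of all genes. Leaving out scramble replicate 1 brought the 15 calls to 6 of 39, beside 14.3% of all genes in the same refit, and leaving out siEXOSC3 replicate 2 brought them to 19 of 38, beside 43.5%. Among tested genes that are not protein coding, 5 of 16 divergent ones rose and 1 fell, and 4 of 17 at other positions rose and 3 fell. Of the 5 protein-coding ones 2 rose. Where exons share no bases with the partner, 4 of 16 rose and 1 fell, and where they do, 5 of 15 rose and 1 fell. Genes without shared exonic bases include some inside the partner, such as Kank4os, where a read from a partner intron cannot be told apart either.

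Cep83os is divergent from Cep83, the gene of a centriole appendage protein needed for cilia, and lies on chromosome 10 from 94136238 to 94151358 on the minus strand. Its FPKM was 5.46, 5.09 and 6.33 in the siEXOSC3 libraries and 2.83, 2.70 and 3.24 in scramble. All 3 knockdown libraries lay well above the scramble range, at 193% ± 21.9 (SD, n = 3) of its mean (log2 fold change 0.76, SE 0.10, adjusted p = 0.002421). Cep83 itself was at 37.2, 37.9 and 41.0 FPKM against 36.6, 38.3 and 35.9, and its groups overlapped (0.07, adjusted p = 0.459). The genes share no exonic bases, and the 176 bases printed above separate their starts.

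Ggnbp2os, divergent from Ggnbp2, showed the largest rise among the tested opposite-strand genes on the log2(FPKM + 1) scale, while Mkln1os rose more as a percent of scramble. It was at 7.35, 7.50 and 7.34 FPKM in siEXOSC3 against 3.75, 2.39 and 4.09 in scramble, 217% ± 2.65 (SD, n = 3) of the scramble mean (0.95, adjusted p = 0.003304). The knockdown libraries were nearly equal and the scramble libraries spread more widely below them. Ggnbp2 was at 92.7% ± 6.96 with overlapping groups (-0.11, adjusted p = 0.2767).

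Mkln1os runs head to head with Mkln1, which encodes muskelin of the CTLH ubiquitin ligase complex. The siEXOSC3 libraries held 3.10, 2.97 and 4.45 FPKM and the scramble libraries 1.88, 1.48 and 0.901, without overlap (247% ± 57.6, SD, n = 3, log2 fold change 0.90, adjusted p = 0.008392). Mkln1 stood at 109% ± 6.43 and did not pass the test (0.12, adjusted p = 0.2348). In siDDX1 the third library of Mkln1os fell within the scramble range, at 3.16, 3.02 and 1.24 FPKM.

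Fam120aos and its divergent partner Fam120a, the gene of an RNA-binding scaffold protein, both rose. Fam120aos went from 8.21, 6.78 and 7.66 FPKM in scramble to 12.4, 13.1 and 11.5 in siEXOSC3 (0.64, adjusted p = 0.002546). Fam120a went from 56.97, 53.3 and 55.5 to 61.2, 63.2 and 68.2 FPKM (0.21, adjusted p = 0.04084), and neither gene's groups overlapped. The Fam120a call was lost in 5 of the 6 refits without a library, all but the one without siEXOSC3 replicate 2 (adjusted p up to 0.1352), and the Fam120aos call in 0. In siDDX1 Fam120aos was at 4.79, 5.10 and 7.01 FPKM, with a lower mean than scramble but 1 library inside the scramble range, and did not pass the test (-0.37, adjusted p = 0.1083).

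Ccpg1os, a protein-coding opposite-strand gene, is divergent from Ccpg1, which encodes a receptor for the autophagy of endoplasmic reticulum. Ccpg1os was at 14.5, 11.2 and 14.6 FPKM against 7.03, 10.7 and 4.53 in scramble (0.83, adjusted p = 0.02988), with the lowest knockdown library close to the highest scramble library. Ccpg1 rose with it (0.44, adjusted p = 0.02792). Both calls were lost without scramble replicate 1 or 3 or siEXOSC3 replicate 1, and that of Ccpg1os also without siEXOSC3 replicate 3, with adjusted p up to 0.1042 for Ccpg1 and 0.09549 for Ccpg1os. Med9os, divergent from the Mediator subunit gene Med9, was at 6.32, 8.10 and 5.11 FPKM against 2.53, 4.32 and 4.91 (0.63, adjusted p = 0.04871). Its groups nearly touched, and leaving out any library but siEXOSC3 replicate 3 lost the call, with adjusted p up to 0.1384. The Med9os call was also lost with a pseudocount of 0.1, without a filter, with quantile normalization, without the intensity trend and with a block on replicate number. Med9 was at 94.6% ± 6.91 (SD, n = 3).

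Among opposite-strand genes that overlap their partner from the far end, Cebpzos, protein coding and on chromosome 17, was at 12.3, 13.1 and 11.7 FPKM in siEXOSC3 against 8.95, 6.66 and 7.54 in scramble. It reached 160% ± 9.37 (SD, n = 3) of scramble without overlap of the groups (0.62, adjusted p = 0.004474). Its partner Cebpz, a factor of ribosome biogenesis, lay in the other direction without passing the test, at 84.0% ± 9.72 (-0.25, adjusted p = 0.05872). In this pair 20.8% of the exonic bases of Cebpzos lie over exons of Cebpz.

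Srrm4os overlaps the end of Srrm4, which encodes a neuronal splicing factor for microexons. It held 2.69, 2.55 and 2.96 FPKM against 1.63, 1.83 and 1.82 in scramble (0.43, adjusted p = 0.01333), a rise that was lost without scramble replicate 1 (adjusted p = 0.06441). Srrm4 was higher in all 3 knockdown libraries too, at 110% ± 3.91 (SD, n = 3), but did not pass the test (0.12, adjusted p = 0.2087).

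Fam219aos and Zfhx2os rose together with their partners. Fam219aos was at 4.71, 2.41 and 4.71 FPKM against 2.22, 1.57 and 2.26 (0.68, adjusted p = 0.03564) and Fam219a at 181% ± 36.2 of scramble (0.76, adjusted p = 0.00504). Exons of Fam219a cover 66.2% of the exonic bases of Fam219aos, so the 2 rises cannot be told apart in these libraries. The Fam219aos call was lost without any library but siEXOSC3 replicate 2 (adjusted p up to 0.1213), and that of Fam219a was kept in all 6 refits. Zfhx2os, an antisense RNA to the zinc finger homeobox gene Zfhx2, was at 5.11, 4.68 and 5.99 FPKM against 3.61, 3.64 and 3.66 (0.43, adjusted p = 0.01383), a call lost without scramble replicate 1 (adjusted p = 0.05716). Zfhx2 was at 157% ± 2.64 of scramble (0.54, adjusted p = 0.003763). Ube4bos3, inside the ubiquitin ligase gene Ube4b, passed the test although its groups overlapped, at 2.59, 1.73 and 3.09 FPKM against 0.736, 1.90 and 1.02 (0.66, adjusted p = 0.0453), and Ube4b was at 108% ± 10.7 (SD, n = 3). The Ube4bos3 call was lost without scramble replicate 1 or 3 or siEXOSC3 replicate 1 or 3 (adjusted p up to 0.1544).

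**Figure D2:**
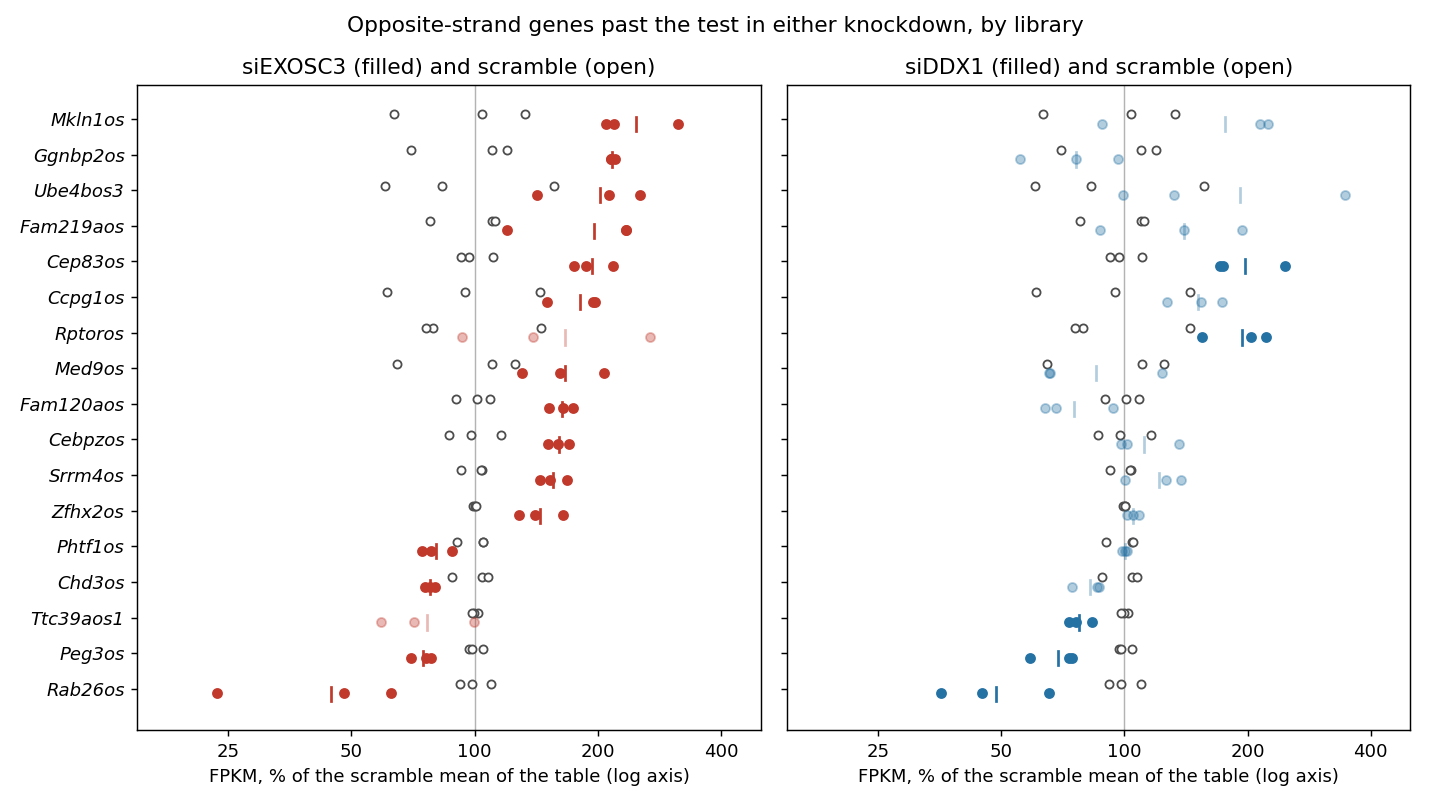
FPKM of the 17 opposite-strand genes past the test in either knockdown, as percent of the scramble mean of the table on a log axis, with siEXOSC3 at left and siDDX1 at right. Open points are the 3 scramble libraries, filled points the 3 knockdown libraries, short bars the knockdown means, and pale points mark a comparison that did not pass the test. Cep83os lies at 193% and 197% of scramble and Rab26os at 44.6% and 48.8% in the 2 knockdowns.

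The most abundant opposite-strand gene of the scramble libraries fell. Rab26os was at 127, 97.4 and 47.9 FPKM in siEXOSC3 against 223, 187 and 200 in scramble, and in siDDX1 at 132, 90.4 and 72.1 against 221, 185 and 198. Every knockdown library lay below every scramble library, at 44.6% ± 19.7 and 48.8% ± 15.3 (SD, n = 3) of the scramble means, and the knockdown libraries spread widely among themselves. The log2 fold changes were -1.26 (adjusted p = 0.01466) and -1.07 (adjusted p = 0.01461). Leaving out scramble replicate 1 or 3 lost the call in siEXOSC3 (adjusted p up to 0.05702), as did leaving out scramble replicate 1 or 3 or siDDX1 replicate 2 in siDDX1 (up to 0.07807). Rab26 was too low to test, at 86.9% ± 11.5 of scramble in siEXOSC3 and 57.3% ± 14.6 in siDDX1 (SD, n = 3), with overlapping groups in both. In siDDX1 it was at 0.420, 0.707 and 0.576 FPKM against 1.43, 0.663 and 0.878. The 250 bases before the RefSeq start of Rab26os, at chr17:24664946-24665195 on the plus strand of NCBIM37, are printed because this gene has the highest FPKM of the opposite-strand genes in scramble. Capitals mark the letters TATAAA and the letters CCAAT, the latter also where they are read on the other strand.
Rab26os: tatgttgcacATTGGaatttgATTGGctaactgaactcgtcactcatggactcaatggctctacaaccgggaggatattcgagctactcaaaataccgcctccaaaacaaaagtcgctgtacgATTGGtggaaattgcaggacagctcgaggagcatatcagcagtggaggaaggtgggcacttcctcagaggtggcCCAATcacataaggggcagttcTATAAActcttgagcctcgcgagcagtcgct
TATAAA begins 31 bases before the start, and CCAAT letters begin 240, 229, 127 and 53 bases before it. TATAAA stands in 14.2% and CCAAT in 37.9% of all 27025 promoter windows of 300 bases, and neither match was tested as a binding site.

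Peg3os, an antisense RNA that overlaps the imprinted zinc finger gene Peg3 in RefSeq, fell with its partner in both knockdowns. It was at 18.3, 20.5 and 19.8 FPKM in siEXOSC3 against 25.3, 27.3 and 25.8 in scramble. In siDDX1 it was at 19.3, 18.9 and 15.2 FPKM, against 25.1, 27.1 and 25.4 for scramble in that table. Groups did not overlap in either comparison (-0.40, adjusted p = 0.005361, and -0.52, adjusted p = 0.0152), and in siDDX1 the call was lost without any of the scramble libraries in turn (adjusted p up to 0.06974). Peg3 fell to 73.4% ± 6.75 (-0.43, adjusted p = 0.006733) and 60.4% ± 3.50 (-0.69, adjusted p = 0.004034) of scramble (SD, n = 3 each). Since the exons of Peg3os were not placed, how far the reads of the 2 genes are shared is not given here.

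Phtf1os and Chd3os fell in siEXOSC3 without their partners. Phtf1os, head to head with Phtf1, was at 10.7, 9.56 and 9.10 FPKM against 12.8, 12.8 and 11.1 (-0.29, adjusted p = 0.03833), while Phtf1 was at 109% ± 3.37 (0.11, adjusted p = 0.1991). Chd3os, downstream of the chromatin remodeller gene Chd3, was at 4.71, 4.58 and 4.46 FPKM against 6.14, 5.19 and 6.35 (-0.30, adjusted p = 0.03798), and Chd3 at 94.5% ± 7.44 (SD, n = 3). Leaving out 1 library lost the Phtf1os call in 3 and the Chd3os call in 4 of 6 refits, with adjusted p up to 0.14 and 0.1396.

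Upon DDX1 knockdown fewer opposite-strand genes passed the test, as did fewer genes of any kind. Of 34 tested, 2 rose (Cep83os and Rptoros) and 3 fell (Peg3os, Rab26os and Ttc39aos1), beside 5.61% of all 11104 tested genes that rose and 5.03% that fell (10.6% in either direction). The median log2 fold change of the 34 was 0.06, against -0.001 over all tested genes. With the filter on scramble alone, 2 rose and 3 fell of 36, beside 5.53% and 5.19% of all genes, and with no filter 1 rose and 2 fell of 104, beside 2.28% and 1.94%. The median with the filter on scramble alone was 0.032, against -0.004 over all genes. Cep83os, Peg3os and Rab26os passed in both knockdowns, which share the scramble libraries. Without scramble replicate 1 or 3 the count by limma was 0 opposite-strand genes (7 and 6 at an unadjusted p under 0.05), beside 1.42% and 1.44% of all genes in the same refits. Without siDDX1 replicate 3 the count was 9 of 34, beside 31.7% of all genes.

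Cep83os was at 5.03, 4.96 and 7.13 FPKM in siDDX1 against 2.80, 2.67 and 3.20, nearly the same distance from scramble as in siEXOSC3 (197% ± 42.7, SD, n = 3, log2 fold change 0.77, adjusted p = 0.01332). Cep83 was at 93.5% ± 8.04 (-0.10, adjusted p = 0.4083). Without scramble replicate 1 or 3 the call for Cep83os was lost (adjusted p up to 0.07144). Rptoros, inside Rptor, the gene of an mTORC1 subunit, was at 3.74, 4.06 and 2.84 FPKM against 1.45, 2.66 and 1.39 (0.70, adjusted p = 0.04585), with the groups just apart. Rptor was at 117% ± 8.41, higher in all 3 libraries but not past the test (adjusted p = 0.08579). Ttc39aos1 was at 4.98, 5.68 and 5.17 FPKM against 6.94, 6.77 and 6.67 (-0.31, adjusted p = 0.04234), while its divergent partner Ttc39a was at 117% ± 0.323 (SD, n = 3, 0.20, adjusted p = 0.1765). The Rptoros call was lost in 4 and the Ttc39aos1 call in 5 of the 6 refits without a library. Both were also lost without a filter, Rptoros with quantile normalization and without the intensity trend as well, and Ttc39aos1 with median centring.

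To ask whether an opposite-strand gene moved apart from its partner, log2(FPKM + 1) of the partner was subtracted library by library. With 3 libraries against 3 the exact permutation test, two-sided, cannot go below p = 0.1, so no pair can pass a threshold and the values are descriptions. In siEXOSC3, 13 of 34 pairs with both genes tested had all 3 knockdown differences above scramble, 3 below, and 18 overlapped. Among single genes 49.7% did not overlap in this comparison, with 23.8% above and 25.9% below, near the 16 of 34 pairs. The median difference was 0.18 over the 34 pairs and 0.37 over the 19 divergent ones. Vax2os, 1 of the 13, was under 1 FPKM in scramble and reached the filter through the siEXOSC3 libraries, and without its pair 12 of 33 lay above and 3 below, with medians of 0.18 and, over 18 divergent pairs, 0.29. The largest were Ggnbp2os (1.06), Cebpzos (0.87), Mkln1os (0.79), Med9os (0.70) and Cep83os (0.69), each with exact p = 0.1 (n = 3 against 3). Among the 13 above, the partner was the gene that moved for Ino80dos (-0.009, beside -0.378 for Ino80d), Ppifos (-0.077, beside -0.392 for Ppif) and Toporsos (-0.075, beside -0.468 for Topors). At the other end, Dbhos stood at -0.96, and here too the partner was the gene that moved. Dbh, which encodes the enzyme that makes noradrenaline, rose from 3.83, 4.70 and 5.05 to 9.05, 8.35 and 10.0 FPKM (0.88, adjusted p = 0.001639), while Dbhos, whose start lies 2530 bases upstream, was at 90.6% ± 14.7 (SD, n = 3).

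In siDDX1, 4 of 31 pairs had all 3 differences above scramble, 3 below and 24 overlapped, beside 34.7% of single genes without overlap (17.0% above and 17.8% below). The 4 above were Cep83os (0.87), Toporsos (0.74), Rptoros (0.49) and Phtf1os (0.28), and the 3 below Uckl1os (-0.53), Ttc39aos1 (-0.51) and Fam120aos (-0.45). For Phtf1os the partner was the gene that moved (0.007, beside -0.27 for Phtf1), and Toporsos and Topors were at 0.37 and -0.38. The median difference was 0.08, also over the 16 divergent pairs. Without scramble replicate 2 the pairs that did not overlap numbered 14, and without siDDX1 replicate 3 they numbered 13, where fewer libraries make overlap rarer.

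**Figure D3:**
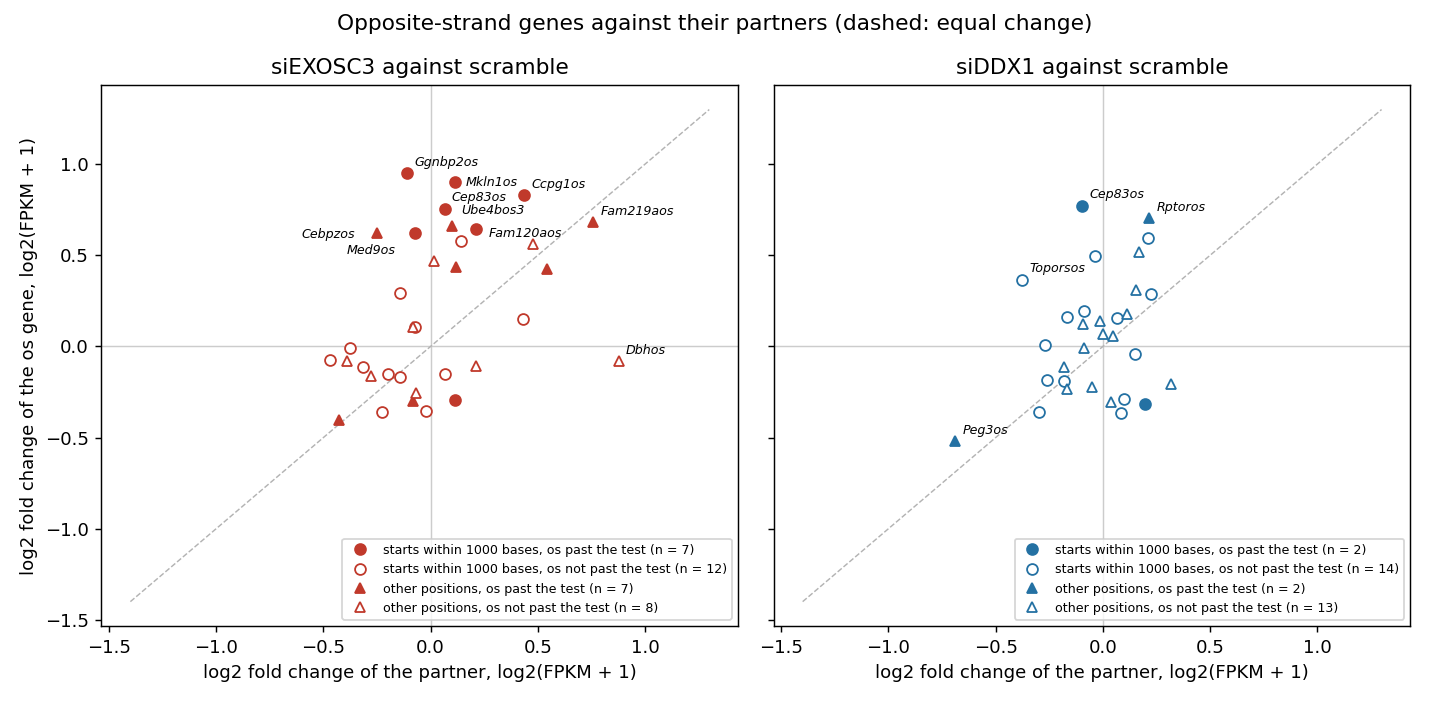
Log2 fold change of each opposite-strand gene (vertical) against that of its partner (horizontal) for the 34 pairs tested in siEXOSC3 (left) and the 31 in siDDX1 (right), with the dashed line at equal change. Circles are divergent pairs, triangles other positions, and filled symbols opposite-strand genes past the test; several filled circles at left stand high while their partner is near 0.

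**Figure D4:**
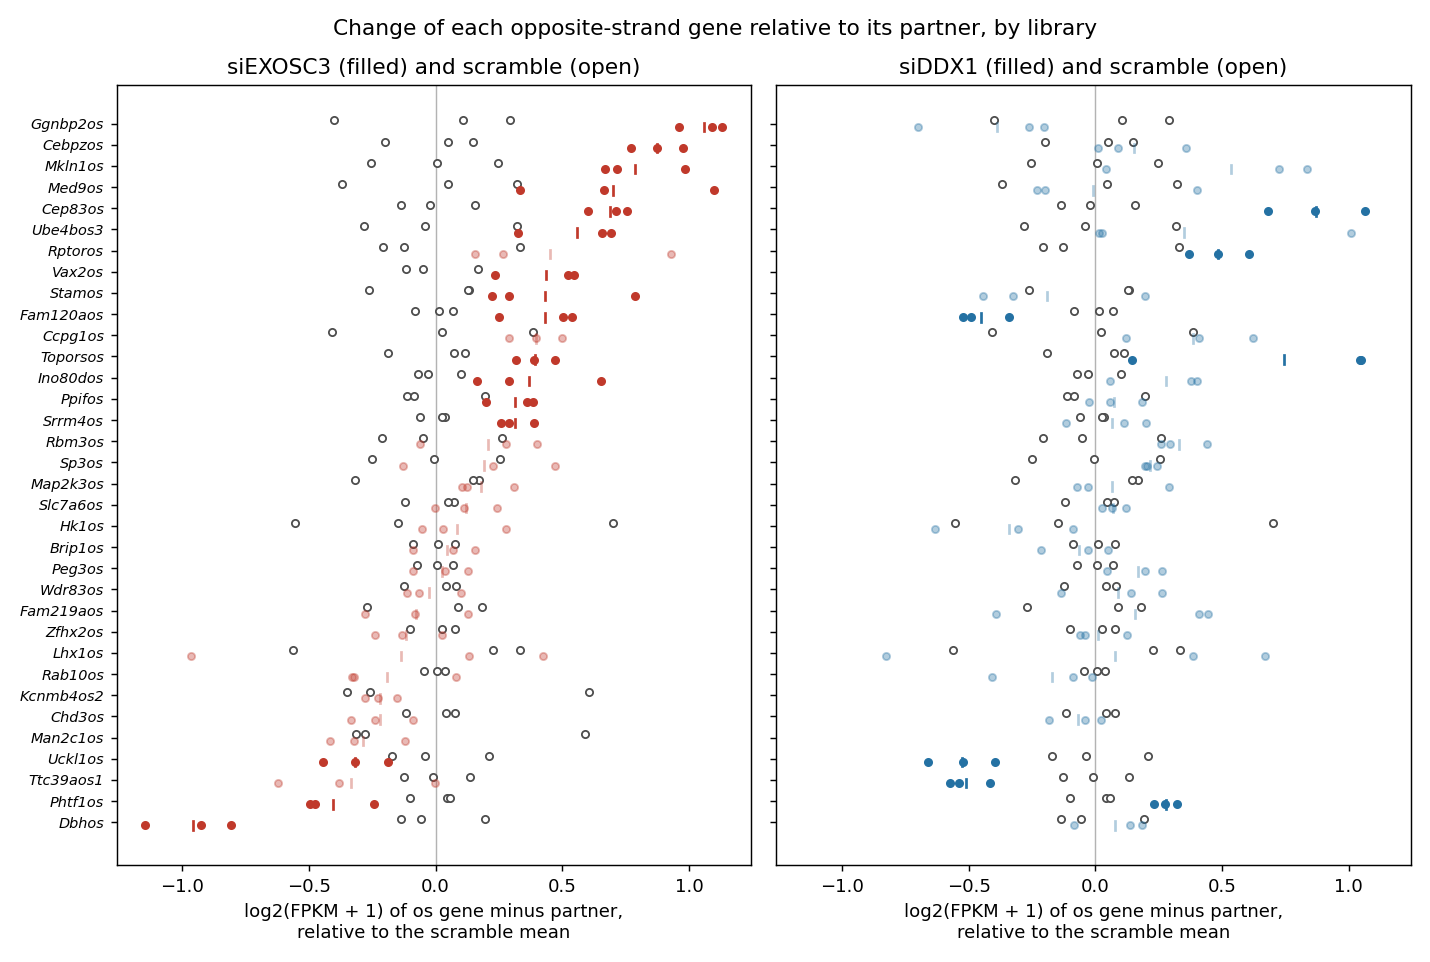
Log2(FPKM + 1) of each opposite-strand gene minus its partner, library by library and relative to the scramble mean, for siEXOSC3 (left) and siDDX1 (right), with open points for scramble, filled points for the knockdown and short bars for its mean. Pale points mark overlapping groups, which were 18 of 34 pairs at left and 24 of 31 at right.

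No tested pair had calls in opposite directions. In siEXOSC3, 5 pairs had both genes past the test in the same direction (Ccpg1os, Fam120aos, Fam219aos, Peg3os and Zfhx2os with their partners), 0 in opposite directions, 9 the opposite-strand gene alone, 6 the partner alone and 14 neither. In siDDX1 the counts were 1 (Peg3os and Peg3), 0, 3, 2 and 25.

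Partners were mostly higher than their opposite-strand genes and more of them could be tested. Of 85 tested in siEXOSC3, 20 rose and 8 fell, beside 16.7% and 15.7% of all genes, and of 83 tested in siDDX1, 1 rose and 5 fell, beside 5.61% and 5.03%. With the filter on scramble alone, 18 rose and 8 fell of 84 in siEXOSC3, and without 1 library the 28 calls numbered 16 to 36. They were 16 of 85 without scramble replicate 1 or 3 or siEXOSC3 replicate 1, beside 14.3%, 17.7% and 18.2% of all genes, 17 without scramble replicate 2, beside 20%, and 36 without siEXOSC3 replicate 2, beside 43.5%. Fhit, a diadenosine triphosphate hydrolase gene, rose from 2.36, 2.52 and 2.47 to 6.75, 6.91 and 6.14 FPKM in siEXOSC3 (1.14, adjusted p = 0.0003362), while Fhitos, inside it, was listed at 0 in 5 of the 6 libraries and at 0.0883 FPKM in siEXOSC3 replicate 3. Grin1, an NMDA receptor subunit gene, and Pcsk2, the gene of a prohormone convertase, are among the 20, but both lay under the filter in scramble and reached it only through the knockdown libraries, so their values are given as a description. Grin1 was at 0.545, 0.602 and 0.642 FPKM in scramble and 1.59, 1.56 and 2.64 in siEXOSC3. Pcsk2 was at 0.593, 0.467 and 0.640 FPKM in scramble and 1.48, 1.45 and 2.02 in siEXOSC3.

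Pcsk2 has 2 opposite-strand genes, neither of which could be tested. Pcsk2os1 lay higher in all 3 siEXOSC3 libraries, at 0.349, 0.390 and 0.427 FPKM against 0.208, 0.163 and 0.199, and 5.8% of its exonic bases lie over Pcsk2 exons. Pcsk2os2 stayed at or under 0.113 FPKM. Tmem150c rose to 185% ± 26.4 (0.81, adjusted p = 0.001521), Acss2, an acetyl-CoA synthetase gene, to 153% ± 13.4 (0.57, adjusted p = 0.002721) and Atcay to 152% ± 10.4 of scramble (0.55, adjusted p = 0.002721; SD, n = 3). Acss2os and Atcayos were listed at 0 in all libraries of both tables.

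Rises by 0.21 to 0.51 on the log2 scale in siEXOSC3 were those of Lyrm7, the hexokinase gene Hk1, Man2c1, the lysosomal amino acid transporter gene Slc36a1, Tspan2, Arhgap33, Grip1, Chn1 and Uchl1, besides Ccpg1 and Fam120a. Of these 9, Tspan2 alone kept its call in all 6 refits without a library, and the others lost it in 2 to 5 (adjusted p up to 0.1319). Hk1os, inside Hk1, was at 6.09, 6.74 and 7.49 FPKM against 2.44, 4.05 and 7.34, so that 1 scramble library lay in the knockdown range. Slain1os was higher in all 3 siEXOSC3 libraries, at 0.119, 0.184 and 0.264 FPKM against 0.115, 0.107 and 0.0741, while Slain1, a microtubule plus-end gene, fell to 68.2% ± 2.76 (SD, n = 3, -0.37, adjusted p = 0.01961), a call lost in 4 of 6 refits (adjusted p up to 0.07035).

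Besides Slain1 and Peg3, the partners that fell in siEXOSC3 were Topors, Ino80d, Ppif, Appbp2, Tomm6 and Etaa1, of which the last 3 lost the call in 3, 3 and 5 of the 6 refits without a library. Topors, the gene of a ubiquitin and SUMO ligase, fell in both knockdowns, to 71.5% ± 4.08 (-0.47, adjusted p = 0.004277) and 76.2% ± 3.97 (SD, n = 3 each, -0.38, adjusted p = 0.01936). The siDDX1 call was lost without scramble replicate 1 or 2 or siDDX1 replicate 1 or 2 (adjusted p up to 0.09687). Its divergent partner Toporsos, protein coding, was at 9.70, 9.99 and 8.49 FPKM in siEXOSC3 against 8.78, 11.6 and 9.63, and at 16.4, 8.61 and 15.3 FPKM in siDDX1. It did not pass the test in either (adjusted p = 0.6131 and 0.2798), and 2 siDDX1 libraries stood high while the other lay below scramble. Ino80d, of the INO80 remodelling complex, fell to 74.9% ± 1.16 and Ppif, the mitochondrial cyclophilin gene, to 75.4% ± 5.94 (SD, n = 3), with Ino80dos at 100% ± 29.5 and Ppifos at 91.6% ± 13.6.

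In siDDX1 the other partner calls were Bcas1 (0.34, adjusted p = 0.03319), which rose, and Vax2 (-0.34, adjusted p = 0.04597), Tspan2 (-0.34, adjusted p = 0.04402) and Phtf1 (-0.27, adjusted p = 0.03619), which fell. Each of these 4 calls was lost without any library but siDDX1 replicate 3 (adjusted p up to 0.1615). Without siDDX1 replicate 3 the partner calls numbered 29 of 83, beside 31.7% of all genes in that refit, and without any other single library they numbered 1 or 2, beside 1.42% to 4.69%. Vax2os, divergent from the homeobox gene Vax2, was at 0.979, 1.08 and 0.961 FPKM against 0.645, 1.05 and 0.810 in scramble. Bcas1os2 stayed at or under 0.277 FPKM in every library.

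Several abundant opposite-strand genes did not pass the test in either knockdown. Epb4.1l4aos, downstream of Epb4.1l4a, was at 137, 93.4 and 106 FPKM in siEXOSC3 against 107, 143 and 131, and at 214, 180 and 110 in siDDX1, with overlapping groups in both (adjusted p = 0.3475 and 0.2985). Wdr83os was at 56.3, 58.4 and 53.8 FPKM in siEXOSC3 against 65.7, 59.9 and 63.9, and at 74.7, 66.1 and 68.9 in siDDX1 against 65.2, 59.5 and 63.1, without passing the test in either. Brip1os, divergent from the Fanconi helicase gene Brip1, was at 17.1, 19.0 and 15.8 FPKM against 19.7, 18.0 and 20.2 in siEXOSC3. In siDDX1 its libraries lay below scramble, at 12.8, 14.3 and 17.2 FPKM against 19.6, 17.8 and 20.0 (-0.36, adjusted p = 0.06205). Slc7a6os, Sp3os, Map2k3os, Rab10os, Kank4os, Stamos and Lhx1os had log2 fold changes from -0.36 to 0.58 in siEXOSC3 and none passed. Of these Stamos, divergent from the endosomal sorting gene Stam, came nearest, at 3.39, 1.52 and 2.78 FPKM against 1.57, 1.05 and 1.39 (0.58, adjusted p = 0.05695).

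Most opposite-strand genes were too low to test. Of the 154, 116 had a mean under 1 FPKM in the siEXOSC3 table, of which 50 were listed at 0 in all 6 libraries. Of the other 66, 8 lay above scramble in all 3 siEXOSC3 libraries (Arhgap33os, Atad3aos, Pcsk2os1, Slain1os, Tbx3os2, Tspan2os, Zeb2os and Zfp85os) and 2 below (Ccdc34os and Fbxl12os), beside 14.0% and 4.99% of 5773 low genes of all kinds. Summed, the 116 held 21.0, 20.9 and 21.4 FPKM in siEXOSC3 against 17.2, 14.5 and 16.9 in scramble. That is 130% of scramble, near the 125% for all genes under the filter. In siDDX1, 0 of 70 low genes above 0 lay above scramble and 3 below (Kcnmb4os1, Man2c1os and Tnk2os), beside 7.11% and 6.28%, and the sum was at 104%, against 103% for all low genes.

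Of the genes under the filter in both tables, those with the highest mean in the siEXOSC3 table were Zeb2os, Atad3aos, Zbtb11os1, Fancd2os and Ppp2r2cos. Zeb2os, inside Zeb2, a transcription factor gene of neural development, was at 0.971, 1.49 and 1.40 FPKM in siEXOSC3 against 0.924, 0.455 and 0.734, and Zeb2 was at 91.0% ± 2.52 of scramble (SD, n = 3). Atad3aos, which starts 80 bases from Atad3a, was at 1.08, 1.06 and 1.22 FPKM against 0.842, 0.845 and 0.625, and Atad3a at 96.6% ± 5.997. The other 3 had overlapping groups in both knockdowns.

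Of 25 genes of the nuclear exosome and its adaptors, 0 rose and 5 fell in siEXOSC3 beside the 15.7% of all genes that fell, and without Exosc3, the target of the siRNA, 4 of 24 (16.7%) fell, near that share. The 5 were Exosc3, Exosc8 (-0.44, adjusted p = 0.02879), Exosc7 (-0.34, adjusted p = 0.03058), the helicase gene Skiv2l2 (-0.21, adjusted p = 0.03142) and the adaptor gene Zc3h18 (-0.33, adjusted p = 0.02827), and at an unadjusted p under 0.05 limma gave 0 higher and 9 lower. Exosc3 alone kept its call in all 6 refits without a library, and the other 4 lost it in 3 or 4 (adjusted p up to 0.1125). In siDDX1 0 rose and 2 fell beside 5.61% and 5.03% of all genes (3 higher and 3 lower at an unadjusted p under 0.05), namely Zfc3h1, of an adaptor complex of the nuclear exosome (59.3% of scramble, -0.75, adjusted p = 0.02954), and Exosc6 (-0.39, adjusted p = 0.04604). Both calls were lost in 5 of 6 refits (adjusted p up to 0.1505), while Exosc3 was at 97.3% of scramble. Antisense transcripts named in another way were few: Znrd1as was at 125% (0.30, adjusted p = 0.07069) and Kcnq1ot1 at 109% of scramble in siEXOSC3, and neither passed in either knockdown.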

How the data were processed

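RNA from 9 N2A cultures (scramble, siEXOSC3 and siDDX1 siRNA, 3 each) was sequenced as paired reads from rRNA-depleted, nondirectional libraries. The authors aligned reads to mm9 with TopHat2 2.1.0, used SAMtools, and ran Cuffdiff 2.2.1. They deposited FPKM, normalized for transcript length and depth, in 2 tables scaled separately. The gene annotation is not given in the sources used here. Number of columns without a sample: 0. FPKM holds no read counts, so depth is only relative and no counting interval is given.

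Genes with a mean of at least 1 FPKM over the 6 libraries of a table were tested on log2(FPKM + 1) with limma 3.58.1 in R 4.3.3 (intensity trend, two-sided, Benjamini-Hochberg over all tested genes, threshold 0.05). P-values measure the spread between separate plates of a single line. Pairs were compared with exact permutation tests in Python 3.11.15, and figures were drawn with matplotlib 3.10.9. In simulated data with 200 genes shifted by 1 on the log2 scale, on which the fit was tested, it recovered 179 of them among 11242 genes for siEXOSC3 and 186 among 11104 for siDDX1, with 13 and 12 false calls.

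Members and lists were chosen with earlier results of these data known. The rule for named genes took Exosc3, Ddx1, every opposite-strand gene called in either knockdown with its partner, every one whose partner was called, the 10 most abundant other tested ones, the 5 most abundant below the filter, and at most 3 called exosome or adaptor genes. Genes named in counts of 8 or fewer and Rbm3os, Dnm3os, Uckl1os, Znrd1as, Kcnq1ot1, Pecam1 and Acta2 were added after their values were seen. The rule for antisense-named genes also took Hras and Leprot by their letters, so its 6 symbols are not a clean list. Symbols matched RefSeq (150 by symbol, 4 by synonym). Of these, 136 were placed in GENCODE vM1 and 12 by exact matches of RefSeq promoter windows to NCBIM37.

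Alternatives were a pseudocount of 0.1, no filter, a mean of at least 5 FPKM, quantile normalization, median centring, a fit without the intensity trend, a block on replicate number, an adjusted p under 0.01, opposite-strand genes without shared exonic bases, and leaving out each library. A filter on scramble alone was added after seeing the data.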

Additional observations from a re-analysis of the deposited data

Results flagged for a closer look

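Among the opposite-strand genes and partners tested in both knockdowns, there were 5 genes in which every siEXOSC3 library lay on 1 side of every scramble library and every siDDX1 library on the other side. Of all tested genes, 49.7% in siEXOSC3 and 34.7% in siDDX1 did not overlap scramble, on either side. The share of all genes with the opposite-side pattern was not counted, so the 5 are given as a description. The values below are log2 fold changes in siEXOSC3 minus those in siDDX1. Both knockdowns share the scramble libraries and the tables were scaled separately, and the difference itself was not tested. Tspan2, the gene of a tetraspanin, had the largest value of the 5, 0.74, and passed the test in each knockdown (0.39, adjusted p = 0.005331, and -0.34, adjusted p = 0.04402, limma). Its siDDX1 call was lost without any library but siDDX1 replicate 3, without a filter, with quantile normalization and without the intensity trend (adjusted p up to 0.1575). Its opposite-strand gene Tspan2os was at 0.668, 0.555 and 0.799 FPKM in siEXOSC3 against 0.358, 0 and 0.308 in scramble, and at 0.361, 0 and 0.433 in siDDX1.

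For Slc36a1 the value was 0.62 (0.36 and -0.26), with only the rise in siEXOSC3 past the test, a call lost without scramble replicate 1 or 2 or siEXOSC3 replicate 1 (adjusted p up to 0.1088). For Phtf1 it was 0.38 (0.11 and -0.27), with only the fall in siDDX1 past it (lost in 5 of 6 refits without a library, adjusted p up to 0.1475), and Phtf1os fell in siEXOSC3. Lpp, the partner of Lppos, had 0.30 (0.21 and -0.09) and passed in neither. Wdr83os, protein coding and divergent from Wdr83, was the only opposite-strand gene among the 5, at -0.32 (-0.17 and 0.16), and passed in neither.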

How the results depend on the processing

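Among opposite-strand genes in siEXOSC3, 15 calls became 13 of 104 without a filter, 9 at a mean of at least 5 FPKM, 6 at an adjusted p under 0.01 and 5 where exons share no bases with the partner, and 6 to 19 without 1 library, lowest without scramble replicate 1. In siDDX1, 5 calls became 3 without a filter, 3 at 5 FPKM, 0 at 0.01 and 2 without shared exonic bases, and 0 to 9 without 1 library. Partner calls in siEXOSC3 (28) became 13 at 0.01 and 16 to 36 without 1 library, and in siDDX1 (6) became 3 without a filter, 1 at 0.01 and 1 to 29 without 1 library. Exosome and adaptor calls in siEXOSC3 (5) became 2 without a filter, 1 at 0.01 and 1 to 11 without 1 library, and in siDDX1 (2) became 0 without a filter, 1 with quantile normalization, 1 with median centring, 1 without the intensity trend, 0 at 0.01 and 0 to 5 without 1 library. Antisense-named calls in siEXOSC3 (0) were 0 to 1 without 1 library. Pairs apart in siDDX1 (7) numbered 8 to 14 without 1 library, where fewer libraries make overlap rarer by construction. Of all tested genes in siEXOSC3, 32.4% passed, then 18.4% without a filter, 34.4% at 5 FPKM and 14.3% to 43.5% without 1 library. In siDDX1 10.6% passed, then 4.22%, 12% and 1.42% to 31.7%. There the share was 10.4% with quantile normalization, 10.9% with median centring and 9.31% without the intensity trend. No such share is given at 0.01 or by shared exonic bases. The lower counts at 5 FPKM, at 0.01 and without shared exonic bases come with fewer genes or a stricter threshold, and the cause of the other shifts was not tested.

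Same-numbered deviations correlated at 0.0346, -0.31 and -0.126 for siEXOSC3, where crossed numbers reached 0.259, so replicate numbers showed no pairing there. For siDDX1 same-numbered deviations correlated at -0.0121, 0.379 and 0.372, and crossing replicates 2 and 3 gave -0.376 and -0.372. Replicates 2 and 3 of siDDX1 thus varied with the scramble replicates of the same number, and replicate 1 did not. Whether this reflects pairing was not tested, and the main fit took the libraries as unpaired. With the replicate number as a block, opposite-strand calls numbered 11 and 7, partner calls 21 and 10, exosome and adaptor calls 3 and 4 and antisense-named calls 0 and 0 in siEXOSC3 and siDDX1, and Exosc3 and Ddx1 stayed at -2.53 and -2.01. Over all tested genes the share past the test went the same way, from 32.4% to 21.8% in siEXOSC3 and from 10.6% to 17% in siDDX1.

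For single named genes, 2213 values under an alternative were computed over 162 results. Of these 2008 stayed on their side of the threshold, 165 lost and 40 gained a call, and 0 reversed while called, though 59 uncalled values changed sign. Cebpzos, Cep83os, Fam120aos, Ggnbp2os, Mkln1os and Peg3os kept their siEXOSC3 call under every alternative that tested them. Ccpg1os, Chd3os, Fam219aos, Med9os, Phtf1os and Ube4bos3 lost theirs without a filter, among other alternatives. Pairs apart in siEXOSC3 and the order of levels in scramble stayed within 1.5 times their counts. FPKM gives no read numbers, so the precision that depth allows is unknown, and 116 of 154 opposite-strand genes lay under the filter on mean FPKM.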
